A study of Mus musculus with 5 samples.

Results

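The hypertrophic signalling genes examined here are 41 genes, chosen by name, that carry hormonal and mechanical growth signals into the heart muscle cell. They comprise 6 receptors, 5 G protein subunits, phospholipases and adenylyl cyclases, 11 genes of the calcium, calmodulin kinase, calcineurin and NFAT branch, 3 protein kinase C genes, 5 genes of the PI3 kinase and Akt branch, 4 MAP kinases, 3 class II histone deacetylases, 2 genes of the cGMP branch and 2 kinases that act on the cytoskeleton. All 41 were among the 18161 genes to which the deposited table assigned a region, and they held 179 of its 30965 regions. Each gene was read at its region with the highest mean signal over the 4 libraries, and again at the region nearest its start.

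The mark measured was H3K23Pr, propionylation of lysine 23 of histone H3, profiled by chromatin immunoprecipitation and sequencing of whole hearts. The donors were male C57Bl/6J mice, given in the labels as aged 12 weeks. They ate a synthetic control diet containing the branched-chain amino acids (BCAA) or a BCAA-free diet from 4 days before surgery until the hearts were taken 2 weeks after it. The operation was either sham or TAC, transverse aortic constriction, a banding of the aorta that overloads the left ventricle. The groups were therefore control diet with sham, control diet with TAC, BCAA-free diet with sham and BCAA-free diet with TAC. Each was a single library made from 3 pooled hearts, so no replicate error exists and every difference given here lies between 2 pools. A further pooled input library contributed no signal column. In 3 samples the treatment field contradicts the sample title, and the titles were followed.

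Hypertrophic signalling is known as the route by which noradrenaline, angiotensin II, endothelin and growth factors enlarge cardiac muscle cells under load. Receptors coupled to Gq activate phospholipase C, which releases calcium and diacylglycerol. Calcium then acts through calmodulin on CaMKII and on the phosphatase calcineurin, which sends NFAT transcription factors to the nucleus, while CaMKII and protein kinase D drive class II histone deacetylases out of it. Protein kinase C, PI3 kinase with Akt, and the MAP kinases act in parallel, and cGMP signalling through its kinase opposes them. Propionyl groups on histones derive from propionyl-CoA, a product of isoleucine and valine breakdown.

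The promoters of the 4 genes at the extremes of the values below are shown first, each running from 250 bases before to 50 bases after the RefSeq start, on GRCm38.p6. They were chosen among members whose RefSeq start lies in the region nearest the labelled start. Of these, Hdac5 had the highest signal at the region nearest its start, and Hdac9 the lowest. Hdac9 also had the lowest TAC ratio there on the control diet and the highest on the BCAA-free diet. The highest TAC ratio on the control diet belonged to Prkca and the lowest on the BCAA-free diet to Mapk7. All 4 are read on the minus strand, at chr11:102230123-102230422 for Hdac5, chr12:34528840-34529139 for Hdac9, chr11:108343839-108344138 for Prkca and chr11:61494212-61494511 for Mapk7. Capitals mark the NFAT core letters GGAAA and the GC box letters GGGCGG, on either strand.
Hdac5: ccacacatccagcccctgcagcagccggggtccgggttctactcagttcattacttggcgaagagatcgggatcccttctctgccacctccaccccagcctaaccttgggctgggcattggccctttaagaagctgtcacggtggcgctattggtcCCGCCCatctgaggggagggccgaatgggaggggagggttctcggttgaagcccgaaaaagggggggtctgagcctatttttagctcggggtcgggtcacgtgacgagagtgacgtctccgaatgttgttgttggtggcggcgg
Hdac9: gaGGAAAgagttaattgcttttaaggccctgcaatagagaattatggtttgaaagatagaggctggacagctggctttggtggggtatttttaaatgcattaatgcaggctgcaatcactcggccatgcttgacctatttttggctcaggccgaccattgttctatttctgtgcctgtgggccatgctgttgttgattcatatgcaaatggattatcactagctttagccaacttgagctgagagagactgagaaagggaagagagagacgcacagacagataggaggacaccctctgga
Prkca: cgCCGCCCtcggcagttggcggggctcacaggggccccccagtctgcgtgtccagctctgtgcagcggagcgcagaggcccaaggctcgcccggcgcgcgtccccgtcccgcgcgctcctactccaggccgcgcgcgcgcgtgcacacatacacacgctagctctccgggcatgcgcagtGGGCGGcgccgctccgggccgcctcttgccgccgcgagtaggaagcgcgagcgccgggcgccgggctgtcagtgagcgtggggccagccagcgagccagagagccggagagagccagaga
Mapk7: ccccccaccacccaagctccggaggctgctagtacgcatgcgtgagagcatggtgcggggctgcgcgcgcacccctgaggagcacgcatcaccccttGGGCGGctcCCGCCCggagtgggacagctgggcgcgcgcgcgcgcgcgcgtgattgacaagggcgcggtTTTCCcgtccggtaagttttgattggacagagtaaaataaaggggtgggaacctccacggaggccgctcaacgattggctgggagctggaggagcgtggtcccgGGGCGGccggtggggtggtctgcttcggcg

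The 4 windows differed in base composition. The Hdac9 window held 3 CpG dinucleotides and no GC box, against 42 CpG and 2 GC boxes for Prkca, 33 and 3 for Mapk7, and 18 and 1 for Hdac5. RefSeq promoters were matched for 32 of the 41 genes. Their windows held a median of 28 CpG, against 7 over all 32851 promoters of the table, and a median GC content of 68.5% against 52.7%. The sets are unlike, because each member counts 1 promoter, that nearest the labelled start. The full set holds several for some genes and was not limited to genes with a region. The GC box occurred in 26 of the 32 (81.2%) and in 35.7% of all promoters. By contrast the 5-letter NFAT core occurred in 18 of 32 (56.2%), near its share of 61.3% in all promoters. The TATA box TATAAA was found in 3 (9.38%, all promoters 13.6%), the GATA letters AGATAA in 1 (3.12%, all promoters 11.2%), and the cAMP response element TGACGTCA in 0 (all promoters 1.79%). No searched motif overlapped another in the 4 printed windows. These matches describe letters and not binding.

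Approximate tags in regions were similar in the 4 libraries, at 16940000 to 18880000. Regions called numbered 22787 to 25729, and both values were highest in the control diet TAC library. How the libraries were scaled is not stated, so sequencing depth cannot be read from these values. Approximate tags are the average signal multiplied by region length and divided by 224, the divisor that links the deposited signal to the deposited tag maximum. The median member region held 1010 to 1227 tags per library, with extremes of 93 and 7013, and the 95% intervals given below are exact Clopper-Pearson intervals that cover counting error only. All 12 cardiomyocyte marker genes had a region, with mean signals of 8.46 to 27.1. In whole hearts, fewer cells of a type and less mark per cell cannot be told apart. Ratios are plain ratios of average signal. A gene was counted as at least 1.5-fold higher or lower on the log2 scale with a pseudocount of 1, and medians are on that log2 scale.

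H3K23Pr was present over the starts of nearly all of these genes. In 39 of 41 the start labelled in the table lay inside a region, the exceptions being Pik3ca and Hdac4. For Pik3ca the RefSeq start did lie in its highest-signal region, whereas that of Hdac4 lay in none of its regions. The highest-signal region was also the region nearest the start in 30 genes, held a promoter and a CpG island in 29, and was called in all 4 libraries in 40. Over all genes it held a promoter and a CpG island in 13373 of 18161, a similar share. For the other counts of this paragraph the shares over all genes are not given, so they describe the members only. It served no other gene in 28. The signal of the other 13 cannot be divided between neighbours, for example Camk2g with Zswim8 and Ndst2, or Mapk7 with Mfap4, B9d1 and 3110043A19Rik.

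Mean signal over the 4 libraries ranged from 6.66 at Pik3cg, a PI3 kinase catalytic subunit used by G protein-coupled receptors, to 26.4 at Adcy6, a major cardiac adenylyl cyclase. Hdac5, a class II histone deacetylase, had 26.3 and Rock2, a kinase that acts on the cytoskeleton, 25.0. Besides Pik3cg the lowest were Hdac9, another class II deacetylase, at 7.88 and Plcb1, a phospholipase C, at 9.78. The members' median was 17.3, against 15.7 over all genes, and 26 of 41 lay above the 50th percentile of all genes. Ordered by library, 22 genes had their highest signal in control TAC and 11 in BCAA-free TAC. Another 5 were highest in control sham and 3 in BCAA-free sham. The lowest value came from BCAA-free TAC in 17 genes, BCAA-free sham in 16, control sham in 6 and control TAC in 2. Summed over all genes, signal was likewise highest in control TAC, at 347000, and lowest in BCAA-free TAC, at 281000. Control sham summed to 285000 and BCAA-free sham to 289000. The order of libraries is not given gene by gene for all genes, so these counts are not a trait of the members.

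**Figure D1:**
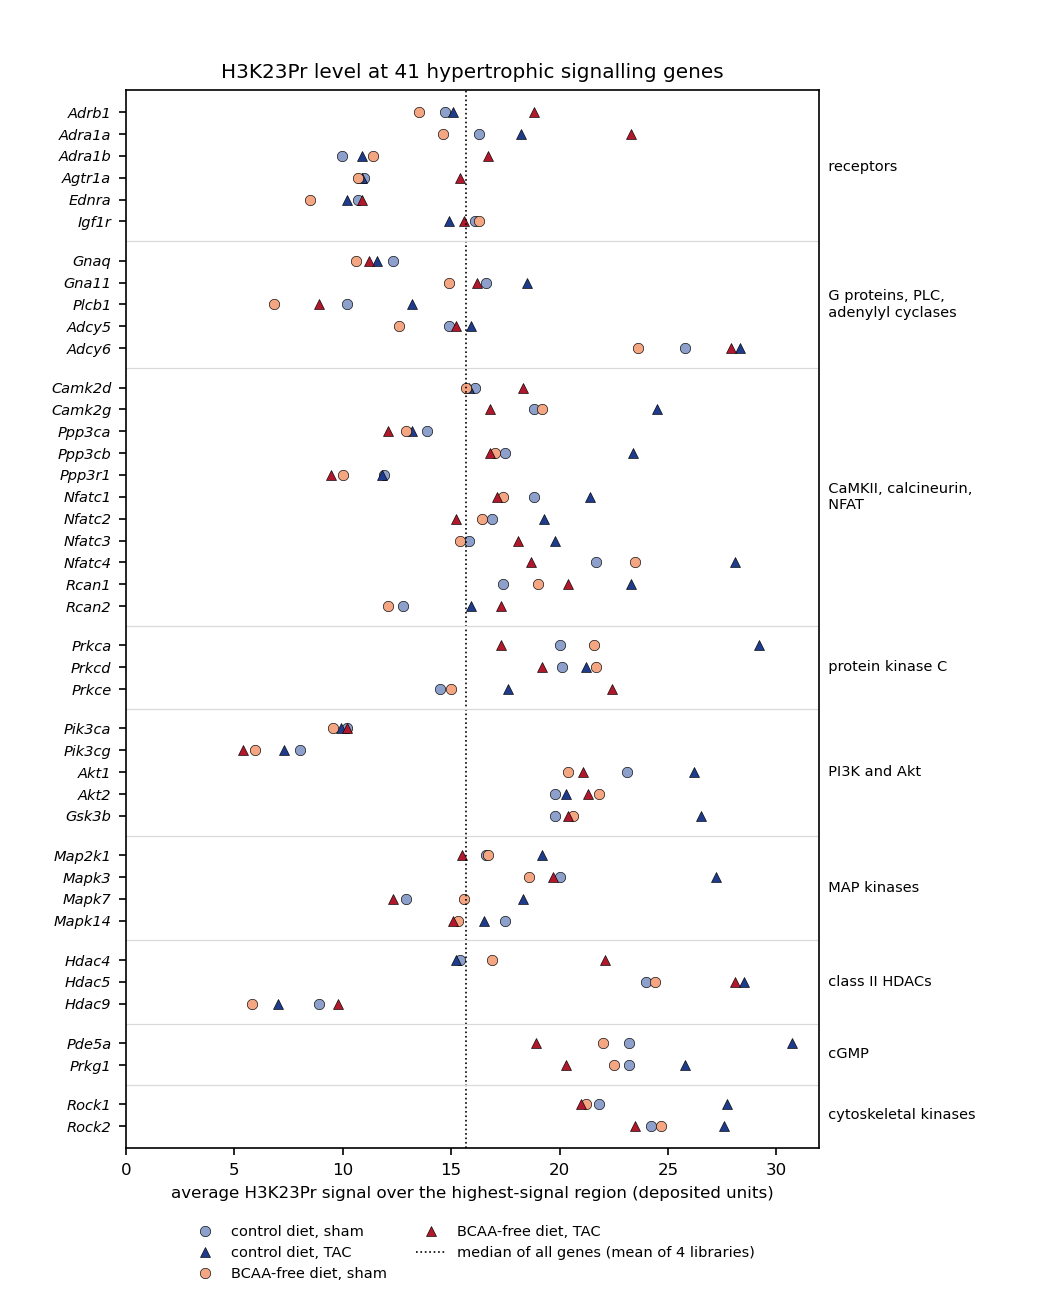
Average H3K23Pr signal (horizontal axis, in the units of the deposited table) at the highest-signal region of each of the 41 genes, grouped by role, with 1 point per library. Adrb1, Adra1a, Adra1b, Agtr1a and Hdac4 have their BCAA-free TAC triangle to the right of the other 3 points, while Prkca, Pde5a, Mapk3 and Gsk3b have the control diet TAC triangle far to the right of the other 3 points.

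The first question was how pressure overload went with the mark at these genes in mice on the control diet. Signal was mostly a little higher in TAC, but by less than at genes in general. Of the 41 ratios, 29 (70.7%) were above 1, beside 88.0% of all genes. The median log2 ratio was 0.15 for the members and 0.26 over all genes. None of the 41 was at least 1.5-fold higher and none was lower, against backgrounds of 4.33% and 0.479% of all genes. Counting intervals lay above 1 for 25 genes, below 1 for 3 and included 1 for 13. Over all genes 67.4% lay above 1 and 3.99% below. The control diet TAC library had more signal at most regions, by a median of 0.16 over all regions. After centring on that value the members' median was 0.00, with 20 of 41 ratios above 1, and the median over all genes was 0.10.

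On the BCAA-free diet the members' log2 ratios ran from -0.32 to 0.66, against -0.30 to 0.53 on the control diet. Over all genes the ranges were -1.77 to 1.74 and -1.42 to 1.82. The members' median on the BCAA-free diet was 0.05, against -0.04 over all genes. Of their ratios 21 were above 1 (51.2%, beside 42.0% of all genes). Hdac9 and the alpha-1A adrenergic receptor gene Adra1a were at least 1.5-fold higher, which is 2 of 41 beside a background of 2.90%. No member was at least 1.5-fold lower, beside 3.75% of all genes. Intervals lay above 1 for 17 genes, below for 9 and included 1 for 15, compared with 19.9% above and 26.1% below over all genes. Centring on all regions moved the members' median to 0.07 and that of all genes to -0.01.

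**Figure D2:**
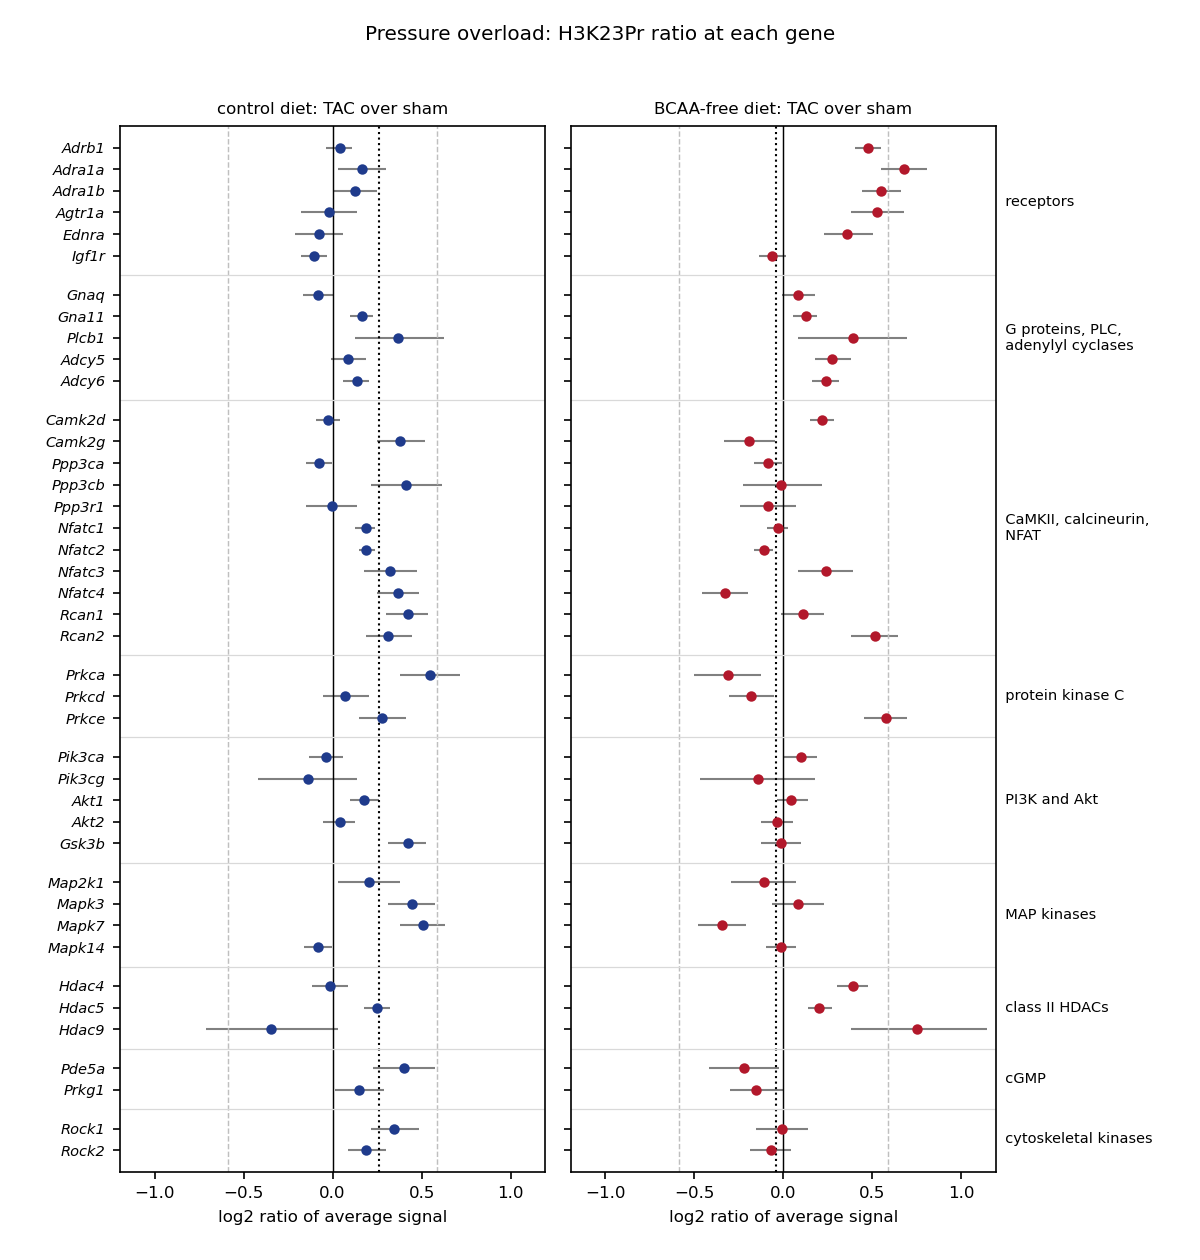
Log2 ratio of average signal, TAC over sham, at each gene on the control diet (left) and the BCAA-free diet (right), with bars for the 95% counting interval; the solid line marks no difference, dashed lines 1.5-fold and the dotted line the median of all genes. On the control diet the calcium branch, MAP kinase and cGMP genes mostly sit to the right of 0, as do 88.0% of all genes. On the BCAA-free diet 5 of 6 receptors and all 3 histone deacetylases do, beside 42.0% of all genes.

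Among the receptors, 5 of 6 had higher signal in TAC on the BCAA-free diet and little difference on the control diet. The receptor medians were 0.01 on the control diet, or -0.15 after centring, and 0.47 on the BCAA-free diet. Adra1a, which couples noradrenaline to Gq, was read downstream, at chromosome 14, 66727600 to 66739999, centred 98541 bp from its start. Its signal was 16.3 in control sham, 18.2 in control TAC, 14.6 in BCAA-free sham and 23.3 in BCAA-free TAC. The BCAA-free TAC value stands above the other 3, with a TAC ratio of 1.60 (1.46 to 1.75) on that diet and 1.12 (1.02 to 1.23) on the control diet. At the Adra1a promoter region the ratios were 1.38 (1.17 to 1.64) and 1.21 (1.03 to 1.43). Adra1b, the alpha-1B receptor gene, had 9.95, 10.9, 11.4 and 16.7 in the same order of libraries. Its ratio was 1.46 (1.36 to 1.58) on the BCAA-free diet and 1.09 (1.00 to 1.19) on the control diet. Adrb1, the main cardiac beta-adrenergic receptor gene, had 14.7, 15.1, 13.5 and 18.8. Agtr1a, a receptor gene for angiotensin II, had 11.0, 10.9, 10.7 and 15.4, so that 3 libraries nearly coincided and BCAA-free TAC stood alone. The Agtr1a ratio was 1.44 (1.30 to 1.60) on the BCAA-free diet and 0.987 (0.884 to 1.10) on the control diet. Ednra, the endothelin A receptor gene, had 10.7, 10.2, 8.48 and 10.9. Here BCAA-free sham was the low library and the other 3 were close, with a TAC ratio of 1.28 (1.17 to 1.42) on that diet. Igf1r, the receptor tyrosine kinase for insulin-like growth factor, was the exception with 16.1, 14.9, 16.3 and 15.6, slightly lower in TAC on the control diet (1.08-fold, 1.02 to 1.13) and with a ratio of 0.958 (0.910 to 1.01) on the BCAA-free diet. That region lies 190442 bp from the Igf1r start. The Igf1r promoter region had 13.2, 13.9, 13.1 and 12.3, with TAC ratios of 1.05 (1.00 to 1.11) on the control diet and 0.939 (0.892 to 0.987) on the BCAA-free diet. The difference between diets there was -0.17 (-0.27 to -0.06).

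The transducers directly below the receptors had median TAC ratios of 0.13 on the control diet, or -0.03 after centring, and 0.23 on the BCAA-free diet, where all 5 ratios lay above 1. At the nearest region the medians were 0.15 and 0.12. Plcb1, the phospholipase C gene activated by Gq, had 10.2 in control sham, 13.2 in control TAC, 6.82 in BCAA-free sham and 8.92 in BCAA-free TAC. TAC exceeded sham by a similar factor on both diets, 1.29 (1.09 to 1.54) and 1.31 (1.06 to 1.62), and both BCAA-free values lay below both control values. Gnaq, the Gq alpha subunit gene, had the lowest ratio of the group on both diets, at 0.945 (0.891 to 1.00) and 1.06 (0.996 to 1.13). Gna11, the gene of the related G11 subunit, was read in a region of 48599 bp shared with Gna15, Aes and Tle2, with ratios of 1.12 (1.07 to 1.17) and 1.09 (1.04 to 1.14). The adenylyl cyclase genes Adcy5 and Adcy6, which make cAMP, had ratios of 1.06 (0.993 to 1.14) and 1.10 (1.04 to 1.15) on the control diet. On the BCAA-free diet theirs were 1.21 (1.13 to 1.30) and 1.18 (1.12 to 1.24). The Adcy5 values come from a region without a promoter, 28063 bp from its start. At the Adcy5 promoter the ratios were 1.20 (1.09 to 1.32) on the control diet and 1.02 (0.921 to 1.13) on the BCAA-free diet, a difference of -0.24 (-0.44 to -0.04).

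In the calcium branch 8 of 11 ratios were above 1 on the control diet, beside 88.0% of all genes. On the BCAA-free diet 4 of 11 were, beside 42.0% of all genes, and centring made it 6. The medians were 0.29 (0.14 after centring) and -0.03 (0.00 after centring). The branch's highest control diet ratio belonged to Rcan1, an NFAT target gene whose product restrains calcineurin. Rcan1 signal was 17.4 in control sham, 23.3 in control TAC, 19.0 in BCAA-free sham and 20.4 in BCAA-free TAC, giving ratios of 1.34 (1.23 to 1.45) and 1.08 (0.992 to 1.17). This region lay inside the gene, 66647 bp from the labelled start. At the start itself the Rcan1 ratios were 1.26 (1.14 to 1.39) and 1.10 (0.996 to 1.21). Its relative Rcan2 had 12.8, 15.9, 12.1 and 17.3, both TAC libraries above both sham libraries. Its BCAA-free ratio of 1.43 (1.30 to 1.56) was the highest of the branch.

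The NFAT genes themselves split. Nfatc4, encoding a calcineurin-activated NFAT factor, had 21.7, 28.1, 23.5 and 18.7. It was the highest of the 4 libraries in control TAC and the lowest in BCAA-free TAC, with ratios of 1.29 (1.19 to 1.40) and 0.797 (0.729 to 0.871). Nfatc2 had 16.9, 19.3, 16.4 and 15.2 over a region of 81199 bp, and its ratios of 1.14 (1.11 to 1.18) and 0.927 (0.893 to 0.962) fell on opposite sides of 1. Nfatc1 was higher in control TAC, at 1.14 (1.09 to 1.18), with 0.981 (0.940 to 1.02) on the BCAA-free diet. Nfatc3, whose loss blunts calcineurin-driven hypertrophy in mice, had log2 ratios of 0.31 and 0.22, with both intervals above 1, in a downstream region shared with Esrp2, 1810019D21Rik and Pla2g15.

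The calcineurin subunit genes had unlike patterns. Ppp3cb, a catalytic subunit gene, had 17.5, 23.4, 17.0 and 16.8, with the control TAC library alone above the rest at a ratio of 1.33 (1.16 to 1.53). Ppp3ca, the other catalytic subunit gene, was slightly lower in TAC on both diets, at 0.948 (0.900 to 0.998) and 0.943 (0.893 to 0.995). The regulatory subunit gene Ppp3r1 had a ratio of 0.999 (0.903 to 1.10) on the control diet. Camk2d, the main cardiac CaMKII gene, had 16.1, 15.8, 15.7 and 18.3, again with BCAA-free TAC above 3 near-equal values, at 1.16 (1.11 to 1.22). For Camk2g the highest-signal region, shared with its neighbours and 60189 bp from its start, had 18.8, 24.5, 19.2 and 16.8. The region over the Camk2g start did not show that pattern, with 12.7, 13.0, 11.2 and 13.1. Its ratios were 1.02 (0.966 to 1.09) on the control diet and 1.17 (1.10 to 1.24) on the BCAA-free diet, where the highest-signal region was at 0.876 (0.794 to 0.967).

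Prkca, the calcium-dependent protein kinase C alpha gene, had the largest TAC ratio of all members on the control diet. Its promoter region held 20.0 in control sham, 29.2 in control TAC, 21.6 in BCAA-free sham and 17.3 in BCAA-free TAC. TAC was 1.46-fold higher than sham (1.30 to 1.64) on the control diet and 1.24-fold lower (1.09 to 1.42) on the BCAA-free diet. Prkce, the calcium-independent epsilon isoform, differed from it, with 14.5, 17.6, 15.0 and 22.4. That was higher in TAC on both diets, by 1.21-fold (1.11 to 1.33) and 1.49-fold (1.37 to 1.62), in a region 267814 bp from the start. Over the Prkce promoter the ratios were 1.24 (1.17 to 1.32) and 1.07 (1.00 to 1.14). Prkcd, the delta isoform, read downstream of the gene, had ratios of 1.05 (0.964 to 1.15) and 0.883 (0.808 to 0.966).

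In the PI3 kinase and Akt branch Gsk3b had the highest TAC ratio on the control diet. Gsk3b encodes a kinase that restrains growth until Akt inhibits it, and had 19.8, 26.5, 20.6 and 20.4. Its ratios were 1.34 (1.24 to 1.44) on the control diet and 0.990 (0.915 to 1.07) on the BCAA-free diet. The branch medians were 0.04 (-0.12 after centring) and -0.01 (0.01 after centring). Akt1 had 23.1, 26.2, 20.4 and 21.1 in a region shared with Siva1 and Zbtb42, and Akt2 had ratios of 1.03 (0.964 to 1.09) and 0.976 (0.918 to 1.04). Pik3ca, the catalytic subunit gene of growth factor PI3 kinase, had ratios of 0.974 (0.912 to 1.04) and 1.07 (1.00 to 1.14) at its highest-signal region. The region that the table places nearest its start was 2599 bp long and was called in 2 libraries. It held 5.65, 9.27, 6.83 and 11.3, with ratios of 1.64 (1.19 to 2.26) and 1.66 (1.24 to 2.22), the 1 member at least 1.5-fold higher at the nearest region on either diet (backgrounds 4.53% and 2.96%). None was at least 1.5-fold lower there (0.584% and 3.84%). Pik3cg signal was low in every library, at 8.03, 7.29, 5.94 and 5.38, and both TAC intervals included 1.

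Of the MAP kinase genes, 3 of 4 were higher in TAC on the control diet, where 88.0% of all genes were. None was higher by more than 1.06-fold on the BCAA-free diet. The medians were 0.31 (0.15 after centring) and -0.06. Mapk7, encoding the stretch-responsive kinase ERK5, had 12.9, 18.3, 15.6 and 12.3 in a region shared with 3 other genes. It was 1.42-fold higher (1.30 to 1.55) in TAC on the control diet and 1.27-fold lower (1.16 to 1.39) on the BCAA-free diet. Mapk3, the ERK1 gene, had 20.0, 27.2, 18.6 and 19.7, with the control TAC library alone standing apart, at a ratio of 1.36 (1.24 to 1.49). Map2k1, the gene of the ERK activator MEK1, had ratios of 1.15 (1.02 to 1.30) and 0.927 (0.814 to 1.05). Mapk14, the p38 alpha gene, was slightly lower in TAC on the control diet, at 0.943 (0.893 to 0.996).

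The products of the class II histone deacetylase genes hold back the MEF2 growth programme. The medians of these genes were -0.02 on the control diet (-0.17 after centring) and 0.37 on the BCAA-free diet. By peak signal the medians were 0.21 and 0.06, and at the nearest region 0.05 and 0.22. Hdac9, with an intragenic region at chromosome 12, 34470200 to 34473799, had 8.89 in control sham, 7.01 in control TAC, 5.82 in BCAA-free sham and 9.79 in BCAA-free TAC. The TAC ratio was 0.788 (0.612 to 1.02) on the control diet and 1.68 (1.30 to 2.21) on the BCAA-free diet, where sham was the lowest library of the 4. Hdac9 signal was low throughout, with 93 tags in BCAA-free sham. At the longer region over its promoter the ratios were 0.781 (0.688 to 0.888) and 1.57 (1.38 to 1.77). Hdac4 had 15.4, 15.2, 16.9 and 22.1, level between the control libraries and 1.31-fold higher (1.23 to 1.39) in BCAA-free TAC than in its sham library. That region holds no promoter and is centred 39994 bp from the Hdac4 start. By peak signal its BCAA-free log2 ratio was -0.07. At the Hdac4 region nearest the start, called in 1 library, the BCAA-free ratio was 1.19 (0.950 to 1.48). Hdac5 was higher in TAC on both diets, with 24.0, 28.5, 24.4 and 28.1 and log2 ratios of 0.24 and 0.20, with both intervals above 1.

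Before centring, both genes of the cGMP branch were higher in TAC on the control diet, as were 88.0% of all genes. Both were lower on the BCAA-free diet, where 42.0% of all genes were higher. Their median was 0.27 on the control diet, or 0.11 after centring with only Pde5a still above 0, and -0.18 on the BCAA-free diet, or -0.15 after centring. Pde5a, whose product degrades cGMP, had 23.2 in control sham, 30.7 in control TAC, 22.0 in BCAA-free sham and 18.9 in BCAA-free TAC. TAC was 1.32-fold higher (1.17 to 1.49) on the control diet and 1.16-fold lower (1.01 to 1.34) on the BCAA-free diet. Prkg1, the cGMP-dependent kinase gene, had 23.2, 25.8, 22.5 and 20.3, a smaller difference in the same directions. The cytoskeletal kinase genes Rock1 and Rock2 had 21.8, 27.7, 21.2 and 21.0, and 24.2, 27.6, 24.7 and 23.5. For both, control TAC was the highest of the 4 libraries, at 1.27 (1.16 to 1.40) and 1.14 (1.06 to 1.23), and the BCAA-free intervals included 1.

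The difference between the TAC responses on the 2 diets was taken as the BCAA-free log2 ratio minus the control diet log2 ratio. It was above 0 in 16.8% of all genes, with 3046 above and 15115 below. Beside that it was above 0 for all 6 receptors, or 5 at the nearest region and 4 by peak signal. For Igf1r the interval included 0, at 0.04 (-0.06 to 0.15). The difference was above 0 for 2 of 11 calcium branch genes, or 5 after centring, and 8 of the 11 lay above the all-gene median. Both cGMP genes were below 0. The median over all members was -0.04, against -0.30 over all genes, and 32 of 41 lay above the all-gene median. After centring, the members' median was 0.16 and the calcium branch median 0.00, while the receptor median was 0.60. The all-gene median was then -0.10. Hdac9 was at least 1.5-fold higher by this measure, with a difference of 1.09 (0.58 to 1.61). It was the only such member, beside a background of 1.55%. Nfatc4, Prkca, Mapk7 and Pde5a were at least 1.5-fold lower, which is 4 of 41 beside 14.8% of all genes. The differences of these 4 were -0.70 (-0.87 to -0.53), -0.86 (-1.11 to -0.61), -0.85 (-1.03 to -0.67) and -0.62 (-0.88 to -0.36). With 1 library in each group the 4 libraries leave no residual degrees of freedom, so the difference between diets has no test. At the nearest region 1 member was higher and 4 were lower (1.77% and 14.6%).

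**Figure D3:**
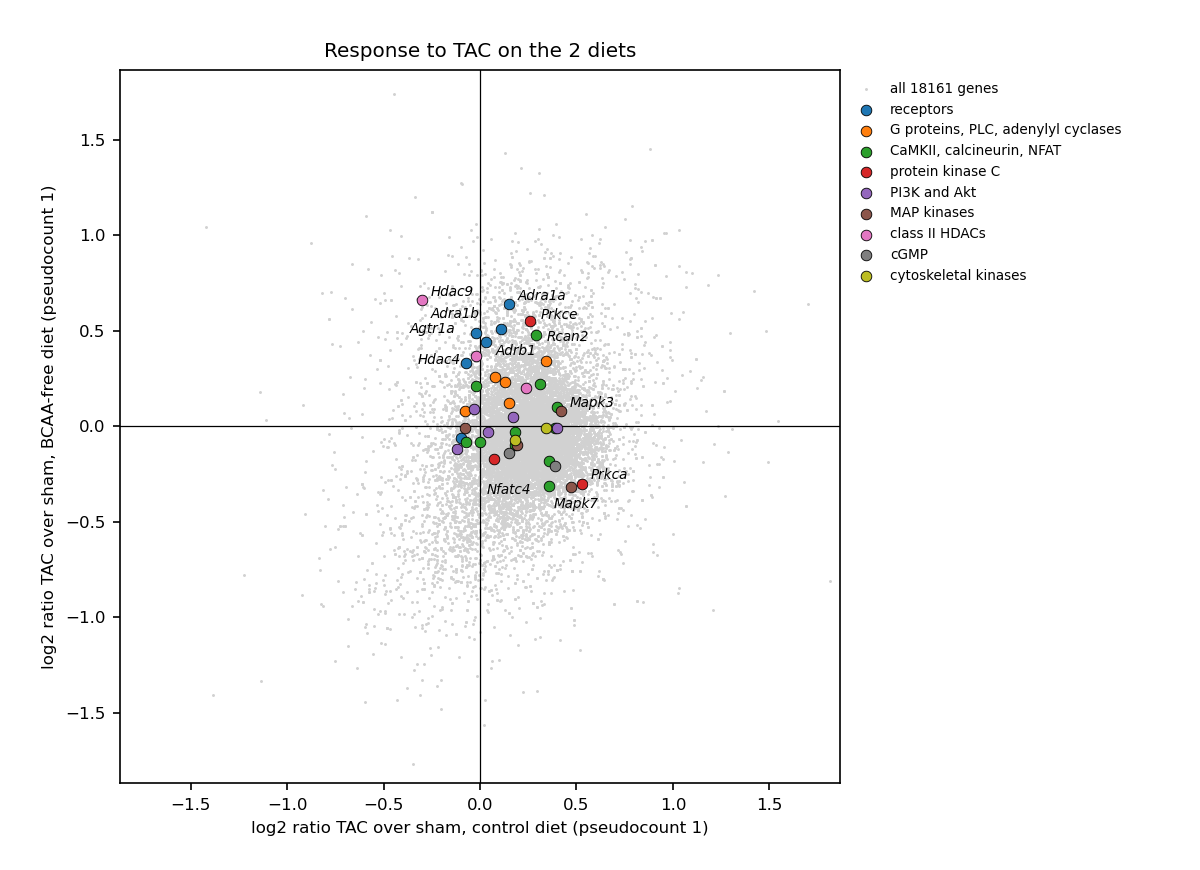
Log2 ratio of TAC over sham with a pseudocount of 1 on the control diet (horizontal axis) and the BCAA-free diet (vertical axis), for all 18161 genes in grey and the 41 genes coloured by role. Hdac9 sits alone among the coloured points at upper left (-0.30 and 0.66), the adrenergic and angiotensin receptors lie near 0 horizontally and high vertically, and Prkca (0.53 and -0.30), Mapk7 and Nfatc4 lie at lower right.

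The diets were also compared directly, with the same 4 libraries. In sham hearts 15 of 41 ratios were above 1, beside 52.3% of all genes, and the median was -0.04 against 0.01 over all genes. No member was at least 1.5-fold higher or lower (backgrounds 0.804% and 0.942%), nor at the region nearest the start (0.787% and 1.10%). The 5 transducers were all below 1, and Plcb1 was the lowest of them, with a plain ratio of 0.668 (0.542 to 0.819). On the pseudocount scale Plcb1 was at -0.52 and Hdac9 at -0.54, both short of the threshold. Hdac9 was 1.53-fold lower in plain ratio (1.18 to 2.02), and Pik3cg was 1.35-fold lower (1.10 to 1.65). The highest sham ratio was that of Mapk7, at 1.21 (1.10 to 1.33). Intervals lay above 1 for 4 genes and below 1 for 15, while 19.0% and 16.6% of all genes did so.

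In TAC hearts all 6 receptor ratios of the BCAA-free to the control diet were above 1 at the highest-signal region, beside 12.9% of all genes, with 2345 above and 15812 below. The intervals of Ednra, at 1.07 (0.979 to 1.18), and Igf1r, at 1.04 (0.990 to 1.10), included 1. At the nearest region 4 of 6 were above 1, with a median of 0.20, while Adra1a was at 0.964 (0.826 to 1.13) and Igf1r at 0.883 (0.840 to 0.928). By peak signal 2 of 6 were above 1 and the receptor median was -0.13. The comparison shares its libraries with both TAC comparisons. The members' median was -0.13, against -0.29 over all genes, with 13 of 41 ratios above 1. After centring on the all-region median of -0.20 it was 0.07, against -0.10 over all genes, with 23 of 41 member ratios above 1. No member was at least 1.5-fold higher, beside 0.809% of all genes. Prkca, 1.68-fold lower (1.49 to 1.90), and Pde5a, 1.62-fold lower (1.43 to 1.85), were the 2 of 41 at least 1.5-fold lower, beside 9.07% of all genes. At the nearest region the counts were again 0 higher and 2 lower (0.969% and 9.53%). Just short of the threshold lay Nfatc4, at 0.667 (0.613 to 0.727), Mapk7, 1.49-fold lower (1.36 to 1.63), and Plcb1, 1.48-fold lower (1.24 to 1.77). In the other direction Adra1b was 1.54-fold higher (1.43 to 1.66), at 0.58 on the pseudocount scale, just under the threshold. Hdac4 was 1.45-fold higher (1.36 to 1.55), Agtr1a 1.42-fold (1.28 to 1.57), Hdac9 1.40-fold (1.08 to 1.79), Prkce 1.27-fold (1.18 to 1.38) and Camk2d 1.16-fold (1.10 to 1.21). Over the Prkce promoter the ratio was 0.833 (0.782 to 0.886). By role the medians were 0.32 for receptors, -0.30 for the calcium branch, -0.37 for MAP kinases and -0.50 for the cGMP branch. None of these changed sign after centring. Other roles did, with protein kinase C going from -0.13 to 0.07 and the transducers from -0.06 to 0.14.

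**Figure D4:**
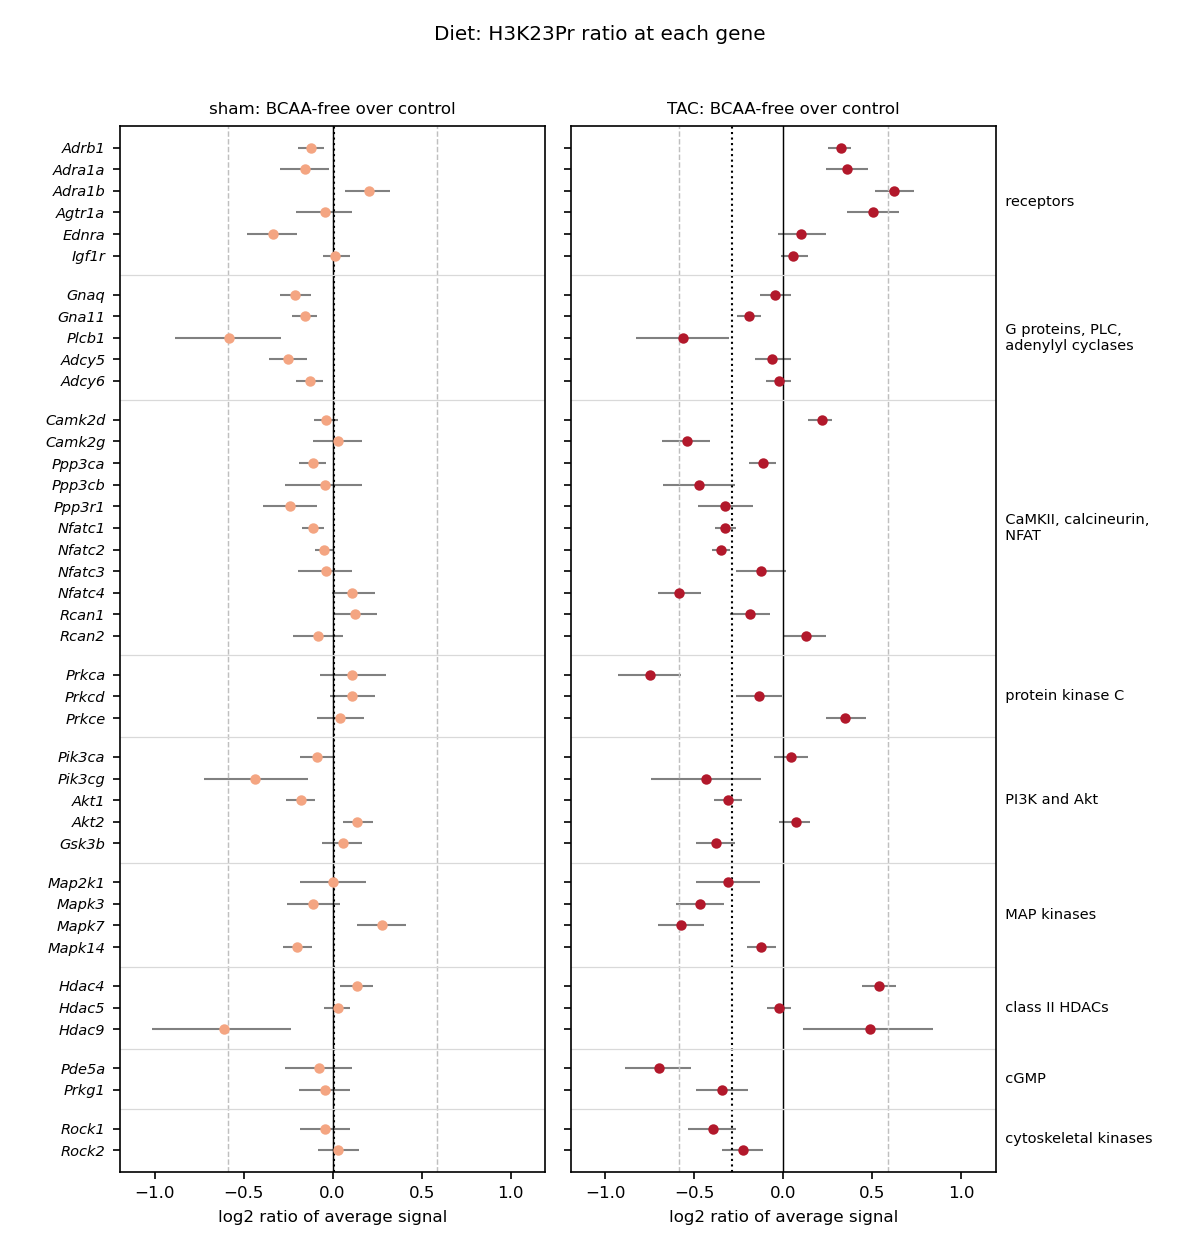
Log2 ratio of average signal, BCAA-free over control diet, at each gene in sham (left) and TAC (right) hearts, with bars for the 95% counting interval; the solid line marks no difference, dashed lines 1.5-fold and the dotted line the median of all genes. In sham hearts nearly all points lie within 1.5-fold of 0, and in TAC hearts the receptors lie to the right of 0 at these regions and Prkca and Pde5a (-0.72 and -0.67 with the pseudocount) beyond 1.5-fold to the left.

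The peak signal, the highest point within a region, gave a different account from the average for several genes. By peak signal the members' median TAC ratio was 0.42 on the control diet, against 0.38 over all genes, and 36 of 41 lay above 0. Gsk3b peaked at 155 in control sham, 244 in control TAC, 180 in BCAA-free sham and 157 in BCAA-free TAC, in the same order as its average. Camk2d did not follow its average, peaking at 162, 237, 178 and 164, so that its TAC log2 ratio on the control diet was 0.55 by peak and -0.02 by average. The same held for Ednra, with peaks of 54, 94, 54 and 67. Agtr1a peaks were 51, 61, 51 and 57, highest in control TAC, while its average was highest in BCAA-free TAC. Between BCAA-free TAC and control TAC the members' median was -0.53 by peak, against -0.52 over all genes. The receptor median in that comparison was -0.13 by peak and 0.32 by average. Adra1a and Hdac9 had high peak ratios in TAC on the BCAA-free diet, with log2 ratios of 0.75 and 1.00. Their peaks were 52, 50, 40 and 68 for Adra1a, and 26, 23, 11 and 23 for Hdac9.

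The 179 regions of these genes were longer and more often away from promoters than gene-assigned regions in general. Their median length was 9199 bp, against 6199 bp. Regions holding no promoter and no CpG island made up 64.8% of them, against 42.3%, and regions with both 24.0%, against 40.2%. The share called in all 4 libraries was alike, at 63.1% and 63.6%. Of the regions called in a single library, 15 were called in BCAA-free TAC, 5 in control TAC, 4 in BCAA-free sham and 3 in control sham. Over all 24152 gene-assigned regions the corresponding counts were 940, 1587, 825 and 538. In the 116 regions with neither feature the median TAC ratio was -0.02 on the control diet and 0.18 on the BCAA-free diet, against 0.02 and 0.06 in all gene-assigned regions of that kind. In the 43 CpG-island promoter regions it was 0.18 and -0.01, against 0.27 and -0.05. Counted over all 179, 15 regions were at least 1.5-fold higher in TAC on the BCAA-free diet and 6 lower (backgrounds 6.89% and 6.79%). On the control diet 4 were higher and 7 lower (5.26% and 1.74%). Regions of 1 gene share its locus and are not independent.

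Within single genes the regions sometimes all lay on the same side. All 4 Hdac9 regions were below 0 on the control diet, from -0.54 to -0.30, and above 0 on the BCAA-free diet, from 0.56 to 0.77. All 9 Camk2d regions lay above 0 on the BCAA-free diet (0.21 to 0.62), and 1 of 9 did on the control diet. The same held on the BCAA-free diet for all 5 Adra1a regions (0.43 to 0.90), all 4 of Adra1b (0.32 to 0.56), all 7 of Hdac4 (0.22 to 0.70) and 18 of the 20 Prkce regions. None of the 8 Prkg1 regions lay above 0 on the BCAA-free diet (-0.72 to -0.14), and on the control diet the 2 above 0 were its CpG-island promoters. In other genes promoter and body parted. At Pde5a the CpG-island promoter was at 0.39 on the control diet, while the other 3 regions lay between -0.89 and -0.11. At Rock1 the promoter region was at 0.34 and the region inside the gene at -0.67. Prkca spanned -0.64 to 0.74 over 14 regions on the control diet and -0.84 to 0.09 on the BCAA-free diet. Rcan2 held the single largest value, 1.56 on the BCAA-free diet, in a region at chromosome 17, 43922200 to 43922799, called in 1 library, with signals of 5.84, 3.37, 3.08 and 11.1.

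**Figure D5:**
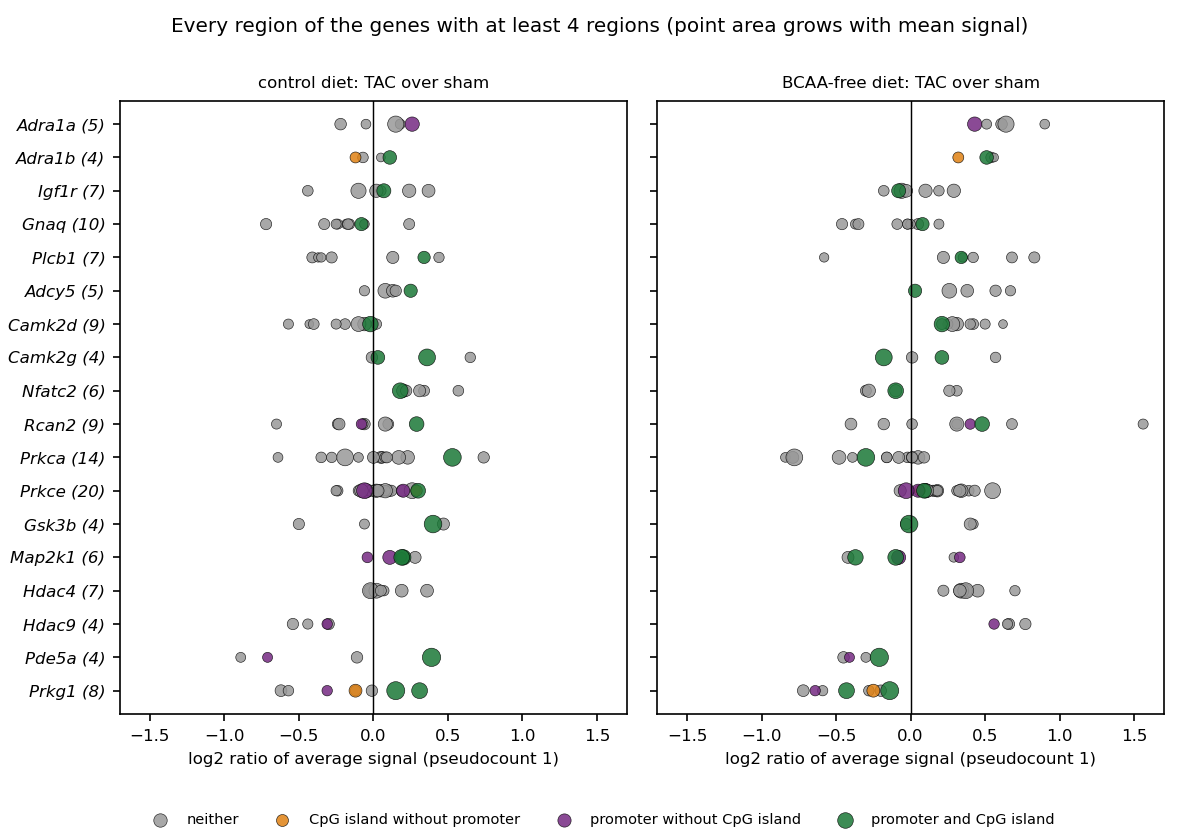
Log2 ratio of TAC over sham with a pseudocount of 1 for 133 regions of the 18 genes that have at least 4 regions, on the control diet (left) and the BCAA-free diet (right), coloured by promoter and CpG-island class, with larger points for higher mean signal. Camk2d, Hdac4, Adra1a and Hdac9 lie wholly to the right of 0 on the BCAA-free diet and Prkg1 wholly to the left, while Prkca and Plcb1 are spread over both sides on the control diet.

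Other genes of the same pathways, taken from a list of 105 symbols of which 98 had a region, had medians close to those of all genes. The medians were 0.21 for TAC on the control diet, -0.04 for TAC on the BCAA-free diet, -0.01 for diet in sham and -0.26 for diet in TAC. On the control diet 3 of the 98 were at least 1.5-fold higher in TAC and none lower (backgrounds 4.33% and 0.479%). Among them were Ednrb, the endothelin B receptor gene, at 1.60 (1.43 to 1.78), and Pde4d, a cAMP phosphodiesterase gene, at 1.60 (1.38 to 1.86). On the BCAA-free diet 2 were higher and 2 lower in TAC (backgrounds 2.90% and 3.75%). Myocd, encoding the SRF coactivator myocardin and sharing its region with Gm12295, had 8.30 in control sham, 9.09 in control TAC, 10.1 in BCAA-free sham and 17.8 in BCAA-free TAC, a ratio of 1.75 (1.68 to 1.83). Pde1c, a phosphodiesterase gene, had a ratio of 1.78 (1.51 to 2.10). Agt, the angiotensinogen gene, was 2.19-fold lower (1.78 to 2.72) in a region shared with Capn9, and the growth factor receptor gene Egfr was 1.75-fold lower (1.55 to 1.98). Between diets in sham hearts, 1 was higher (Pde4d) and none lower (backgrounds 0.804% and 0.942%). After TAC 1 was higher (background 0.809%) and 8 lower on the BCAA-free diet. Myocd was the higher one, at 1.95-fold (1.87 to 2.04), and the lower ones included Hdac2, a class I deacetylase gene, at 1.83-fold lower (1.65 to 2.04), and Akap5, a kinase anchoring protein gene, at 1.75-fold lower (1.35 to 2.26) in a region shared with Mthfd1. The 8 of 98 lower stand beside the 9.07% of all genes given above.

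Marker genes of cardiac cell types also differed between the libraries, and none of the 52 markers was at 0. Cardiomyocyte markers had a median TAC ratio of 0.20 on the control diet and 0.51 on the BCAA-free diet, where all 12 were above 0. By peak signal the medians were 0.36 and 0.27, with 9 of 12 above 0 on the BCAA-free diet. The average signal of these markers summed to 154 in control sham, 175 in control TAC, 158 in BCAA-free sham and 221 in BCAA-free TAC. That was highest in the same library as for the receptors, which summed to 78.7, 80.1, 75.0 and 101. Fibroblast markers, by contrast, summed to 131, 132, 172 and 109, with a BCAA-free TAC median of -0.65 and 0 of 10 above 0. Endothelial markers summed to 195, 238, 157 and 197, lowest in BCAA-free sham, as were all 5 transducer genes. That library was also the lowest for the receptor sum and for the sum over all members, at 662. Smooth muscle and pericyte markers summed to 129, 145, 125 and 121, and macrophage and immune markers to 177, 205, 172 and 136. The calcium branch genes summed to 182, 217, 179 and 180. The part of these cell type differences in the results above was not tested.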

How the data were processed

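H3K23Pr ChIP-seq was done by Active Motif, per the labels, on 1 pool of 3 hearts per group. The submitters' processing notes name BWA, MACS2 and mm10 without roles. The authors deposited a table of merged regions with the average and peak signal (coverage) of each library, a call flag, gene annotation and log2 ratios. The deposited log2 ratios, made by the authors from average signals, were not used. How libraries were scaled to each other is not stated per the file headers. The deposited tag maxima served only to find the divisor of 224.

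From the deposited average signal, plain ratios and log2 ratios with a pseudocount of 1 were computed for 41 genes and all genes (Python 3.11.15, pandas 2.3.3, numpy 2.4.6, scipy 1.17.1, matplotlib 3.10.9), with 95% Clopper-Pearson intervals on approximate tags. Approximate tags in regions numbered 1010 to 1227 at the median member. With 1 library per group, no comparison within a diet or operation has a test, and the additive fit over the 4 libraries, which leaves 1 residual degree of freedom, was not run. Members and lists were chosen with earlier results of these data known. Named were the members at least 1.5-fold different at either region, the highest and lowest ratio in each role, the 3 highest and 3 lowest levels, and, of other pathway genes, the 4 largest log2 ratios of those at least 1.5-fold different. Others were added to describe each role. The alternatives were other pseudocounts, peak signal, the nearest region, the mean over a gene's regions, a signal minimum, centring, leaving out shared regions and other fold thresholds. The calculation was tested on simulated data. The simulated tags carried counting error only, without variation between pools or a scaling difference between libraries, so the simulation does not bear on either. A gene that the naming rule selects is not reported here.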

Additional observations from a re-analysis of the deposited data

Results flagged for a closer look

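In 7 genes the TAC ratio and its counting interval lay above 1 on the control diet and below 1 on the BCAA-free diet. The difference between diets was not tested, because each group is 1 library. On the log2 scale the difference was -0.86 for Prkca (-1.11 to -0.61), -0.85 for Mapk7 (-1.03 to -0.67), -0.70 for Nfatc4 (-0.87 to -0.53) and -0.62 for Pde5a (-0.88 to -0.36). It was -0.57 for Camk2g (-0.76 to -0.38), -0.30 for Nfatc2 (-0.38 to -0.23) and -0.30 for Prkg1 (-0.51 to -0.10). The Camk2g value belongs to a region shared with Zswim8 and Ndst2, and over the Camk2g start the difference had the other sign, at 0.19 (0.07 to 0.31). After centring, the Prkg1 log2 ratio on the control diet was -0.01. By the mean over all regions of a gene it was -0.05 for Prkg1 and -0.03 for Pde5a. Prkca and Mapk7 kept their control diet sign at both settings. These 7 are 17.1% of the 41 members, and 15.5% of all genes (2821 of 18161) had intervals on opposite sides. Of those, 2671 were above 1 on the control diet and below 1 on the BCAA-free diet, and 150 the reverse.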

How the results depend on the processing

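The members' median TAC ratio on the control diet was 0.15, and 0.42 by peak signal and 0.00 once each comparison was centred on its all-region median. In TAC hearts the diet median was -0.13, and -0.53 by peak and 0.07 after centring. The difference between diets was -0.04, and -0.40 by peak and 0.16 after centring. Over all genes the centred medians of these comparisons were, in the same order, 0.10, -0.10 and -0.10. The count at least 1.5-fold higher in TAC on the control diet was 0, and 7 by peak (beside 3276 of 18161 genes), 1 at the nearest region and 11 at a looser log2 threshold of 0.32 (35.9% of all genes). On the BCAA-free diet it was 2, and 0 with a pseudocount of 5, 1 at the nearest region, 1 among regions at or above the median signal, 10 at the looser threshold (9.42%) and 0 at 2-fold. In sham hearts the count lower on the BCAA-free diet was 0, and 1 with a pseudocount of 0.1, 2 by peak and 3 at the looser threshold (5.34%). In TAC hearts the count higher was 0, and 1 with a pseudocount of 0.1, 1 by the mean over all regions, 4 after centring (2.03%) and 6 at the looser threshold (2.90%). The count lower was 2, and 1 with a pseudocount of 5, 17 by peak (beside 7311 of 18161 genes), 0 by the mean over all regions, 0 after centring (2.28%), 13 at the looser threshold (44.6%) and 0 at 2-fold. The cause of these moves was not tested, apart from the thresholds' own effect. Of 599 alternative values for 78 named values, 484 moved by less than the counting error and 115 by more; peak signal accounted for 39, the mean over all regions for 33 and centring for 32. The sign differed from the main one in 40 of the 599, none of them a value at least 1.5-fold. These were 15 by the mean over all regions, 12 by peak, 7 by centring and 6 at the nearest region. At the nearest region 4 of the 41 genes (Igf1r, Camk2g, Prkce and Adcy5) had an interval on the other side of no difference, in 6 comparisons. No paired analysis was possible because each group is 1 library and the labels carry no replicate numbers. No variation between hearts could be measured, and low regions such as that of Hdac9 have the widest intervals.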
